A study of Mus musculus with 15 samples.

Results

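A set of 50 enzymes of amino acid metabolism was followed in dissected kidney tubules of mice labelled Cldn10a KO or WT. Claudin-10a is a tight junction protein of the proximal tubule encoded by Cldn10. The genes were taken by symbol from a list of pathway enzymes, with no threshold on their values, and all 50 were found among the 54752 genes of the deposited count table. The libraries of 4 groups were compared: proximal convoluted tubules (PCT) of Cldn10a KO mice (n = 3, replicates 4, 5 and 7), PCT of WT mice (n = 4, replicates 1, 2, 3 and 6), distal convoluted tubules (DCT) of Cldn10a KO mice (n = 4, replicates 5 to 8) and DCT of WT mice (n = 4, replicates 1 to 4). A proximal pool held 10 tubules per kidney and a distal pool about 20, taken from kidneys cut into slices, with no treatment named. The labels do not state the strain, the age or the cells in which the KO allele is deleted, nor that each library is a separate animal, so the p-values measure the spread between these libraries. Values are CPM, a gene's counts relative to the size of its library scaled by trimmed means of M values, and log2 differences come from limma with voom weights, fitted to the whole table. A gene is called where its limma p, adjusted over all genes tested by the Benjamini-Hochberg method, is under 0.05.

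Amino acids filtered at the glomerulus are taken back by the proximal tubule, whose cells also convert them. The proximal tubule makes arginine from citrulline, makes guanidinoacetate for creatine synthesis, breaks down tyrosine, tryptophan and lysine, and releases ammonia from glutamate. The distal convoluted tubule mainly reabsorbs salt and magnesium and burns fuel in its many mitochondria, and the enzymes that oxidise branched-chain amino acids are found in mitochondria of most tissues.

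The libraries held 28729339 to 51764746 counts, of which 57.8 to 71.6% were mitochondrial ribosomal RNA and 8.02 to 19.7% came from nuclear protein-coding genes. The PCT KO libraries had 0 Cldn10 counts each, and the PCT WT libraries had 11.2 to 28.7 CPM. In distal tubule Cldn10 was low and did not follow genotype, with 0, 0.349, 0.597 and 0 CPM in DCT KO replicates 5 to 8 (0, 12, 24 and 0 counts), against 0.276, 0.0686, 0.103 and 0.471 CPM in DCT WT replicates 1 to 4. DCT KO replicate 7 was above every DCT WT library. Cldn10 also gives claudin-10b, the form of the thick ascending limb, which counts per gene do not tell from claudin-10a, so the genotype of the distal libraries is taken from their labels alone. The 7 markers of the proximal tubule summed to 3458 to 3714 CPM in PCT KO, 3108 to 3840 CPM in PCT WT, 7.09 to 14.2 CPM in DCT KO and 10.8 to 13.5 CPM in DCT WT libraries, and 6 markers of the distal convoluted tubule to 23.1 to 34.7 CPM in PCT KO, 26.3 to 31.5 CPM in PCT WT, 2794 to 3232 CPM in DCT KO and 2401 to 3129 CPM in DCT WT libraries, as the labels give the segments. The PCT groups differed in markers of the straight proximal segment, which follows the convoluted part. A list of 9 such markers summed to 2664, 1967 and 2811 CPM in PCT KO replicates 4, 5 and 7, against 654, 1302, 532 and 1695 CPM in PCT WT replicates 1, 2, 3 and 6. Of the 8 straight-segment markers tested, 8 had a log2 difference above 0 (KO minus WT, median 1.65) and 2, Atp11a and Acy3, were called. At most 1 of the 9 was at 0 in a PCT KO library and at most 2 in a PCT WT library, and Kap, a kidney androgen-regulated protein, gave most of each sum (1673 ± 419 CPM in PCT KO, n = 3, and 701 ± 454 CPM in PCT WT, n = 4). The 6 markers of the early proximal tubule summed to 1934 to 2322 CPM in PCT KO and 2150 to 2671 CPM in PCT WT (median log2 difference −0.50, 0 of 6 called). The 5 endothelial markers summed to 15.7 to 30.9 CPM in PCT KO and 9.78 to 19.0 CPM in PCT WT, with 5 of 5 above 0 (median log2 difference 0.72) and 0 of 5 called. The 5 thick limb markers summed to 259 to 404 CPM in DCT KO and 161 to 340 CPM in DCT WT. All 4 tested lay above 0 (median log2 difference 0.69), with 0 called. The 4 intercalated cell markers summed to 69.8 to 140 CPM in DCT KO and 121 to 169 CPM in DCT WT, with 0 called. For the 4 connecting tubule and principal cell markers the sums were 59.1 to 94.3 CPM in DCT KO and 72.8 to 95.8 CPM in DCT WT, with 0 called.

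The 50 enzymes together made up 0.281 to 0.294% of the scaled counts in PCT KO and 0.246 to 0.301% in PCT WT, against 0.0457 to 0.0486% in DCT KO and 0.0477 to 0.0526% in DCT WT. Their summed level was 2872 ± 63.1 CPM in PCT KO (SD, n = 3) and 2737 ± 227 CPM in PCT WT (n = 4), against 470 ± 13.2 CPM in DCT KO (n = 4) and 505 ± 20.3 CPM in DCT WT (n = 4). In KO, 35 of the 48 members tested were higher in proximal than in distal tubule and 5 were lower (limma, adjusted p under 0.05), where 20.4% of all 13834 genes tested were higher and 20.2% were lower. In WT, 33 of 47 were higher and 7 were lower, where 23.6% of 13616 genes were higher and 25.1% were lower. The median log2 difference of the members tested, proximal minus distal, was 3.50 in KO and 3.40 in WT, and that of all genes tested was −0.04 in KO and −0.02 in WT. With the members that had 0 distal counts set at their lower bound (a floor of 3 counts per distal library), the medians were 3.50 in KO and 3.24 in WT. In each genotype 5 of the members tested had 0 counts in every distal library and passed the filter through their proximal libraries alone. The bounds cover only those 5 members. Others had few distal counts, as only 31 of the 50 members passed the filter in the fit of distal libraries. The counts of members called and the medians therefore describe the members and are not support for a difference. Fewer cells of a type in a pool and less RNA per cell cannot be told apart in such samples.

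**Figure D1:**
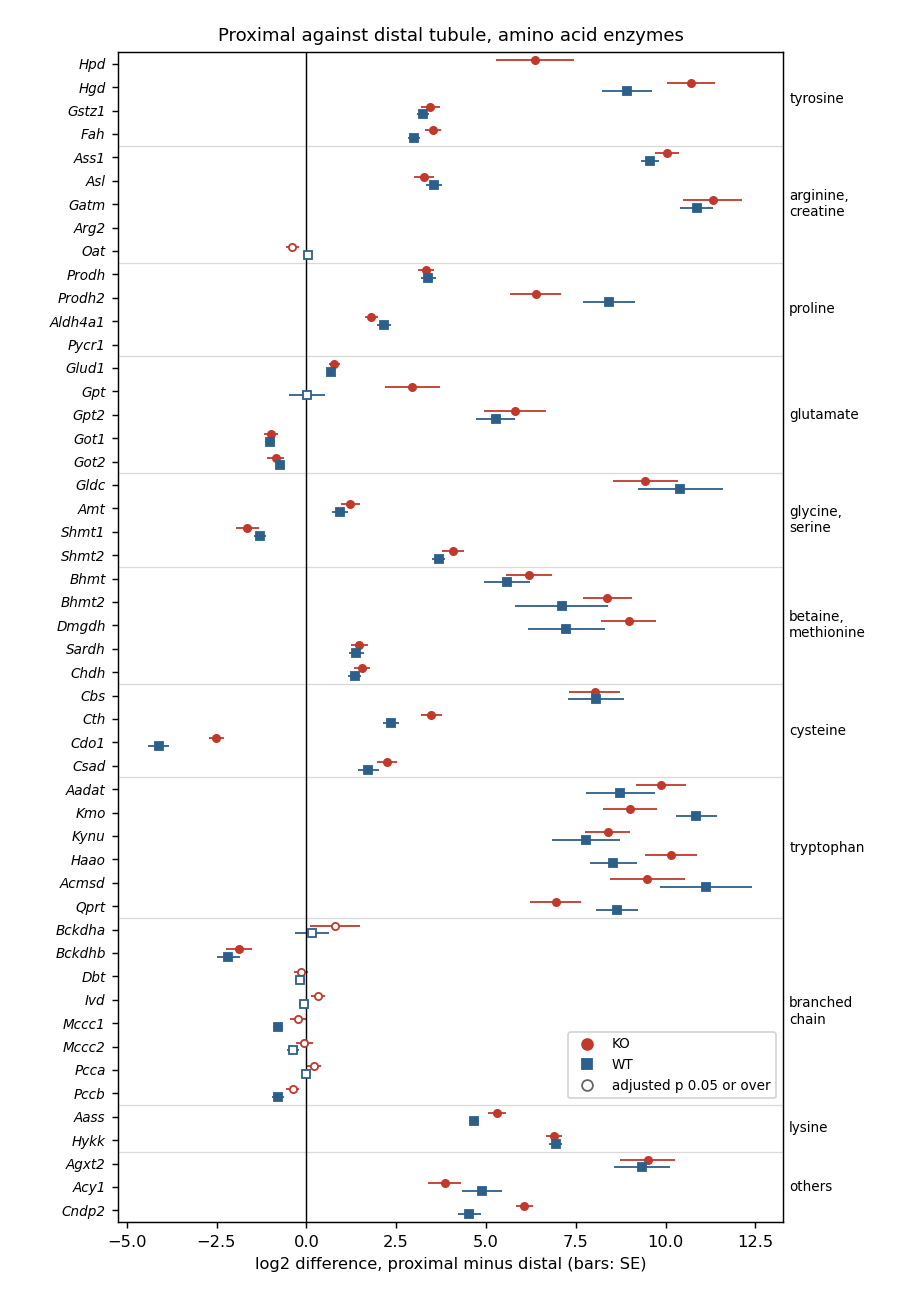
Log2 difference of each member between proximal and distal tubule (proximal minus distal, limma, bars are SE), in KO (red circles, 7 libraries) and WT (blue squares, 8 libraries), by pathway. Filled points passed the adjusted p of 0.05. The 6 kynurenine members lie far to the right in both genotypes. The 8 branched-chain members lie at −1.88 to 0.81 in KO and at −2.17 to 0.16 in WT. Members with no point did not pass the filter on low counts.

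Arginine and creatine synthesis gave the most abundant members of the proximal tubule. Ass1 (argininosuccinate synthase, which joins citrulline and aspartate; GRCm38 chromosome 2, 31470207 to 31520672) had 963, 708 and 942 CPM in PCT KO and 881, 915, 1019 and 749 CPM in PCT WT, against 1.18, 0.610, 1.244 and 0.484 CPM in DCT KO and 0.965, 1.12, 1.006 and 1.46 CPM in DCT WT. Every proximal library was far above every distal one, and the genotypes overlapped in both segments. Gatm (glycine amidinotransferase, the first step of creatine synthesis; chromosome 2, 122594467 to 122611303) had 353, 694 and 367 CPM in PCT KO and 553, 545, 633 and 428 CPM in PCT WT, against 0.0291 to 0.522 CPM in DCT KO and 0.155 to 0.435 CPM in DCT WT. Per kilobase of exon, Ass1 stood at 361 CPM in PCT KO and 369 CPM in PCT WT, and Gatm at 157 CPM in PCT KO and 180 CPM in PCT WT; Glud1, the next, was at 51.1 CPM per kilobase in PCT KO and 53.6 CPM per kilobase in PCT WT. Asl, which splits argininosuccinate into arginine and fumarate, was also higher in proximal tubule (log2 difference 3.28 ± 0.28 in KO and 3.55 ± 0.23 in WT, SE). Oat, the mitochondrial ornithine aminotransferase, was not called between segments (log2 difference −0.39 ± 0.17 in KO with a limma adjusted p of 0.0846, and 0.04 ± 0.11 in WT with 0.787); the KO value was called without PCT KO replicate 5 (−0.48, limma adjusted p = 0.0331) and, with every library kept, in 1 fit of all 15 libraries (−0.39, 0.0290). Arg2, the mitochondrial arginase, did not pass the filter on low counts in any comparison (group means 0.0367 to 0.172 CPM).

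The members of tryptophan breakdown were measured almost wholly in proximal tubule. All 6 kynurenine members were called higher in proximal tubule in both genotypes, and their summed level was 127 ± 18.3 CPM in PCT KO and 119 ± 15.7 CPM in PCT WT, against 0.286 ± 0.118 CPM in DCT KO and 0.149 ± 0.104 CPM in DCT WT. Acmsd (aminocarboxymuconate semialdehyde decarboxylase, which turns the pathway away from NAD synthesis; chromosome 1, 127729413 to 127767978) had 23.0, 53.5 and 54.4 CPM in PCT KO and 30.0, 61.7, 72.7 and 37.0 CPM in PCT WT. In distal tubule Acmsd had 0.131, 0, 0.124 and 0.0231 CPM in DCT KO, and in DCT WT it had 3 counts in replicate 4 and none in the others, a ratio of 2655 between WT proximal and distal tubule with a 95% Poisson interval of 908 to 12872. Kmo (kynurenine 3-monooxygenase; chromosome 1, 175620381 to 175662116) had 28.3, 22.2 and 31.5 CPM in PCT KO and 22.9, 22.2, 26.1 and 25.4 CPM in PCT WT, and 0 counts in every DCT WT library, at least 308-fold higher in WT proximal tubule with a floor of 3 counts per library. Such intervals and bounds cover counting error only. Haao, which opens the ring of hydroxyanthranilate, had 14.9 ± 3.90 CPM in PCT KO and 0 counts in DCT KO, at least 192-fold higher. Qprt, the entry to NAD synthesis from this pathway, had 8.60 ± 0.301 CPM in PCT KO and 8.93 ± 0.560 CPM in PCT WT. Kynu, the kynureninase, had 4.37 ± 0.844 CPM in PCT KO and 5.99 ± 2.12 CPM in PCT WT. For Qprt and Kynu the distal group means were 0 to 0.103 CPM.

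The members of tyrosine, proline and lysine breakdown that could be tested were likewise higher in proximal tubule. Hgd, the homogentisate dioxygenase of tyrosine breakdown, averaged 69.4 ± 7.43 CPM in PCT KO and 68.0 ± 1.54 CPM in PCT WT, against 0.0390 ± 0.0337 CPM in DCT KO and 0.298 ± 0.344 CPM in DCT WT. The enzymes after it, Gstz1 (maleylacetoacetate isomerase) and Fah (fumarylacetoacetase), were higher in proximal tubule by log2 3.46 ± 0.28 and 3.52 ± 0.23 in KO, and by 3.24 ± 0.17 and 3.00 ± 0.16 in WT. Hpd, the enzyme before Hgd, was low in every proximal library (7 to 125 counts over both genotypes) and had 0 counts in all distal libraries. Its proximal level was at least 21.2-fold higher in KO and at least 11.9-fold higher in WT, and whether it was called was set by the filter on low counts, which it passed in KO and not in WT. Prodh, the proline dehydrogenase, and Aldh4a1, which follows it, were higher by log2 3.33 ± 0.21 and 1.81 ± 0.19 in KO and by 3.40 ± 0.20 and 2.16 ± 0.20 in WT. Aldh4a1 shares 32.5% of its exon bases with another gene on the same strand, so its counts are uncertain. Pycr1, a proline synthesis enzyme, had group means of 0.0302 to 0.0545 CPM and was not tested. The lysine enzymes Aass (the first step, aminoadipic semialdehyde synthase) and Hykk (hydroxylysine kinase) summed to 467 ± 44.2 CPM in PCT KO and 335.9 ± 25.003 CPM in PCT WT, against 6.66 ± 1.27 CPM in DCT KO and 5.67 ± 0.668 CPM in DCT WT. Agxt2, which acts on beta-aminoisobutyrate, Acy1, an aminoacylase, and Cndp2 were also called higher in both genotypes, by log2 9.51 ± 0.77, 3.85 ± 0.46 and 6.07 ± 0.24 in KO and by 9.35 ± 0.78, 4.89 ± 0.57 and 4.54 ± 0.31 in WT. Agxt2 had 3 counts over all DCT WT libraries (ratio 735, 95% Poisson interval 251 to 3563) and at most 4 counts in a DCT KO library. Acy1 had 2 to 11 counts in each distal library.

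Not every pathway followed this order. The cytosolic and mitochondrial aspartate transaminases Got1 and Got2 were lower in proximal than in distal tubule: Got1 averaged 14.3 ± 0.738 CPM in PCT KO against 29.1 ± 6.27 CPM in DCT KO, and 17.2 ± 1.86 CPM in PCT WT against 34.6 ± 6.13 CPM in DCT WT. The Got2 call in KO was lost without DCT KO replicate 8 (log2 difference −0.74, limma adjusted p = 0.0520, against −0.85 and 0.0101 with all libraries). Glud1, the glutamate dehydrogenase that releases ammonia, was high in both segments and 0.78 ± 0.15 (KO) and 0.67 ± 0.11 (WT) log2 units higher in proximal tubule. Gpt2, the mitochondrial alanine transaminase, was higher in proximal tubule (log2 5.80 ± 0.86 in KO and 5.27 ± 0.54 in WT). Gpt, the cytosolic form, was called in KO (2.95 ± 0.77) and not in WT (0.02 ± 0.49), on group means of 0.0712 to 0.476 CPM. In glycine metabolism Shmt1 and Shmt2, the cytosolic and mitochondrial serine hydroxymethyltransferases, went opposite ways. Shmt1 (chromosome 11, 60788104 to 60811718) had 3.37, 7.16 and 3.04 CPM in PCT KO against 16.4, 8.49, 15.3 and 13.9 CPM in DCT KO, and 5.601, 5.93, 6.43 and 3.82 CPM in PCT WT against 16.2, 13.9, 11.7 and 11.4 CPM in DCT WT. Its proximal and distal libraries did not overlap in either genotype. Shmt2 had 37.7 ± 9.64 CPM in PCT KO against 2.27 ± 1.0006 CPM in DCT KO, and 32.8 ± 3.23 CPM in PCT WT against 2.53 ± 0.477 CPM in DCT WT. Gldc, the decarboxylase of the glycine cleavage system, had 14.004 ± 6.21 CPM in PCT KO and 18.7 ± 7.17 CPM in PCT WT, with 2 counts in all DCT KO libraries together and 0 in DCT WT (at least 239-fold higher in WT proximal tubule). Amt, the aminomethyltransferase of the same system, differed by log2 1.22 ± 0.26 in KO and 0.94 ± 0.22 in WT.

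Sulfur amino acid enzymes were divided between the segments. Cdo1 (cysteine dioxygenase, the first step towards taurine; chromosome 18, 46713193 to 46728395) was lowest in proximal relative to distal tubule of all members. It had 11.9, 8.23 and 7.36 CPM in PCT KO against 46.4, 52.9, 58.2 and 46.8 CPM in DCT KO (log2 difference −2.502 ± 0.20, SE), and 2.501, 3.44, 2.14 and 7.55 CPM in PCT WT against 64.0, 73.1, 56.7 and 42.4 CPM in DCT WT (−4.11 ± 0.28). Every distal library was above every proximal one. Per kilobase Cdo1 was the most abundant member in distal tubule, at 31.1 CPM in DCT KO and 35.9 CPM in DCT WT, with Glud1 next at 29.8 CPM in DCT KO and 33.2 CPM in DCT WT. Csad, the decarboxylase that follows Cdo1, was higher in proximal tubule (2.25 ± 0.28 in KO and 1.73 ± 0.29 in WT, log2), as were the transsulfuration enzymes Cbs (8.02 ± 0.70 in KO and 8.07 ± 0.78 in WT) and Cth (3.48 ± 0.29 in KO and 2.36 ± 0.22 in WT). All 5 members that handle choline, betaine and methylated glycines were called higher in proximal tubule in both genotypes. Dmgdh, the dimethylglycine dehydrogenase, had 0 counts in every distal library, and its lower bounds were 87.6-fold in KO and 31.0-fold in WT.

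The 8 members of branched-chain amino acid and propionate breakdown formed the only pathway with 0 members called higher in proximal tubule in either genotype. One was called lower in KO and 3 were called lower in WT. Bckdhb (the E1 beta subunit of the branched-chain ketoacid dehydrogenase; chromosome 9, 83925145 to 84124240) had 1.03, 0.696 and 1.10 CPM in PCT KO against 3.18, 2.64, 4.98 and 3.41 CPM in DCT KO, and 1.36, 1.64, 1.04 and 0.5004 CPM in PCT WT against 6.17, 5.17, 3.33 and 5.01 CPM in DCT WT. The segments did not overlap in either genotype. Mccc1 and Pccb, the subunits of methylcrotonyl-CoA and propionyl-CoA carboxylase that pair with Mccc2 and Pcca, were called lower in WT (log2 −0.79 ± 0.14 and −0.78 ± 0.17). In KO, Mccc1 was called without PCT KO replicate 5 (−0.50, limma adjusted p = 0.0489) and Pccb without DCT KO replicate 7 (−0.48, 0.04999). Dbt, Ivd, Mccc2 and Pcca differed by −0.37 to 0.32 log2 units and were not called. Bckdha, the E1 alpha subunit, had group means of 0.404 to 0.689 CPM and shares 61.7% of its exon bases with a gene on the opposite strand, so its counts are uncertain without the strand setting. The pathway summed to 105 ± 23.6 CPM in PCT KO and 85.7 ± 7.45 CPM in PCT WT, against 109 ± 2.91 CPM in DCT KO and 112 ± 6.91 CPM in DCT WT.

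**Figure D2:**
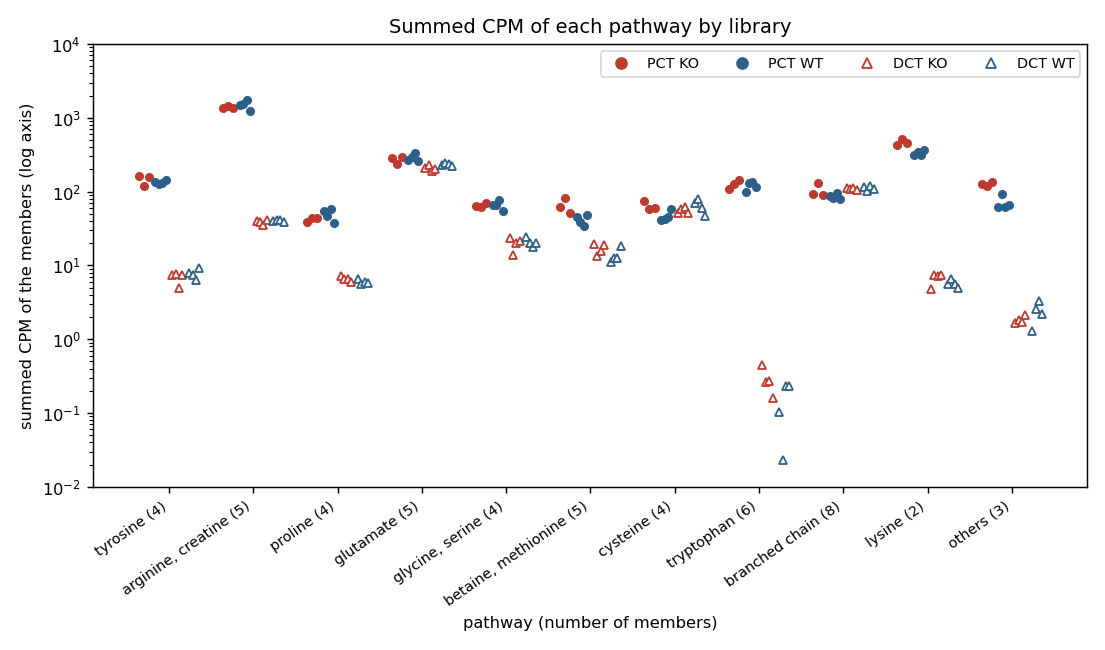
Summed CPM of the members of each pathway in every library, on a log axis (the number of members is in brackets). Filled circles are PCT and open triangles DCT libraries, KO in red and WT in blue, in the order PCT KO, PCT WT, DCT KO, DCT WT from left to right. The kynurenine sums lie at 99.1 to 146 CPM in PCT libraries and at 0.0229 to 0.446 CPM in DCT libraries, and the branched-chain sums overlap between segments.

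The comparison of KO with WT proximal tubule asked whether these enzymes differ where claudin-10a is normally made. None of the 48 members tested was called (limma), where 0.166% of all 13229 genes tested were called (22 genes, and 2 to 18 when 1 library was left out). At an unadjusted p under 0.05 there were 11, or 22.9% of the members tested, 9 of them higher and 2 lower in KO, where 7.38% of all genes passed. The median log2 difference of the members (KO minus WT) was 0.16 and that of all genes tested was −0.01, with 29 members above 0 and 19 below. In 6 members the KO and WT libraries did not overlap, 4 higher and 2 lower in KO, where 7.97% of all genes tested did not overlap. A permutation test over 3 against 4 libraries has 35 arrangements and cannot give a p below 0.0286. The number of calls depended on the fit: 1 fit of all 15 libraries called 6 members, all higher in KO (Cndp2, Aass, Aadat, Cdo1, Dmgdh and Bhmt2, limma adjusted p from 0.00314 to 0.0321), where it called 92 genes higher and 31 lower among 15279.

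Cndp2 and Aass had the smallest p-values. Cndp2 (cytosolic dipeptidase 2, which splits cysteinylglycine and other dipeptides; chromosome 18, 84667465 to 84685702) had 109, 93.9 and 116 CPM in PCT KO, against 44.0, 76.9, 39.8 and 50.8 CPM in PCT WT. All 3 KO libraries were above all 4 WT libraries, and the log2 difference was 1.04 ± 0.21 (SE) with a limma adjusted p of 0.0817 and an exact two-sided permutation p of 0.0571. Without PCT WT replicate 2, the WT library with the most Cndp2, the difference was 1.23 and was called (limma adjusted p = 0.0340). Aass (chromosome 6, 23072173 to 23132986) had 152, 184 and 126 CPM in PCT KO, against 94.5, 97.2, 90.6 and 99.8 CPM in PCT WT. The WT libraries lay close together and the KO libraries above them (log2 difference 0.66 ± 0.16, limma adjusted p = 0.153, exact permutation p = 0.0286). Hykk, the other lysine enzyme, had 282, 333 and 325 CPM in PCT KO, against 219, 252, 226 and 265 CPM in PCT WT, again without overlap (0.37 ± 0.14, limma adjusted p = 0.578).

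Cdo1, Dmgdh and Bhmt2 had larger fold differences on fewer counts. Cdo1, given above by library, had 331 to 427 counts in PCT KO and 113 to 332 counts in PCT WT. Its KO libraries at 11.9 and 8.23 CPM were above all WT libraries, while KO replicate 7 at 7.36 CPM lay just below WT replicate 6 at 7.55 CPM (log2 difference 1.39 ± 0.34, limma adjusted p = 0.173). Without PCT WT replicate 6 the difference was 1.74 and was called (limma adjusted p = 0.0400). Dmgdh had 7.39, 8.73 and 4.23 CPM in PCT KO, against 2.31, 1.82, 0.815 and 4.78 CPM in PCT WT (1.70 ± 0.43, limma adjusted p = 0.197). Bhmt2, which uses S-methylmethionine to make methionine, had 7.86, 8.85 and 5.80 CPM in PCT KO, against 1.45, 3.59, 0.967 and 6.89 CPM in PCT WT (1.63 ± 0.46, limma adjusted p = 0.284). In both genes KO replicate 7 was the lowest KO library and lay below WT replicate 6, the highest WT library. PCT KO replicate 7 and PCT WT replicate 6 are also the 2 PCT libraries whose library numbers begin with 97, unlike those of the other 13 libraries. Without both of them Dmgdh (log2 difference 2.41, limma adjusted p = 0.0252) and Cdo1 (1.89, 0.0264) were called. WT replicate 6 also had the highest sum of straight-segment markers among WT libraries, at 1695 CPM, and WT replicate 3, the lowest WT library for Dmgdh, Bhmt2, Cdo1, Aadat and Cndp2, had the lowest sum, at 532 CPM. Among KO libraries the order differed between members. Replicate 5, with the lowest sum at 1967 CPM, had the most Dmgdh, Bhmt2 and Aass but the least Cndp2, at 93.9 CPM. Replicate 7, with the highest sum at 2811 CPM, had the least Dmgdh, Bhmt2, Cdo1 and Aass. The same replicate 7 had the most Cndp2, at 116 CPM, and the most Aadat, at 30.8 CPM. All PCT KO libraries had higher sums than all PCT WT libraries; the part of the straight segment in the members' differences was not tested.

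Aadat (aminoadipate aminotransferase, which acts on both kynurenine and the lysine product aminoadipate; chromosome 8, 60505932 to 60545677) had 26.8, 28.1 and 30.8 CPM in PCT KO, against 16.0, 16.4, 9.88 and 20.5 CPM in PCT WT. The groups did not overlap (log2 difference 0.90 ± 0.22, limma adjusted p = 0.165, exact permutation p = 0.0286). The other 5 kynurenine members had log2 differences of −0.42 to 0.15. The 250 bases before the RefSeq start site of Aadat, in which the letters CAAAGTCCA were found on the reverse strand, are shown because Aadat is 1 of the 2 members with this match; the capitals mark the match, whose first base lies 72 bases before the start (RefSeq, GRCm38.p6, chr8:60505874-60506123, + strand). The RefSeq start site lies downstream of the GENCODE M21 gene start given above, so most of this window, the match included, is inside the GENCODE gene span.
Aadat: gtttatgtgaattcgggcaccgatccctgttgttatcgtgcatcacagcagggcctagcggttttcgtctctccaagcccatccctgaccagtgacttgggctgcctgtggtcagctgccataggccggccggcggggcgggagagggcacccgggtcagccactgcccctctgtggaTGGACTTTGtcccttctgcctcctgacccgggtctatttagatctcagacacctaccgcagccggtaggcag
CAAAGTCCA is a form of the site bound by HNF4A, a transcription factor of proximal tubule and liver, and was searched on both strands. It was found in 2 of the 42 members with a promoter in the RefSeq table (4.76%, Aadat and Agxt2), and in 0.451% of 27025 genes. A match is a description of letters and not a measured site.

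Dmgdh and Bhmt2 lie head to head on chromosome 13, with Bhmt, the betaine-homocysteine methyltransferase, behind Bhmt2 (Bhmt 93616675 to 93637961, − strand; Bhmt2 93655720 to 93674302, − strand; Dmgdh 93674433 to 93752833, + strand, GENCODE M21 on GRCm38). The whole stretch between the RefSeq start sites of Bhmt2 and Dmgdh is shown because 2 of the members with the smallest p share it; it is 133 bases long, 69.9% G or C, and held neither of the motifs searched (GRCm38.p6, chr13:93674303-93674435, + strand).
Bhmt2 and Dmgdh: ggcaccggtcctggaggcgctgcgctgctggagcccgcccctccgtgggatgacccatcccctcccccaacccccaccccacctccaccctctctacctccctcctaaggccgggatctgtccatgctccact
Bhmt itself was far lower, with 0.940 ± 0.122 CPM in PCT KO and 0.637 ± 0.194 CPM in PCT WT (log2 difference 0.58 ± 0.38, limma adjusted p = 0.781). Chdh, the choline dehydrogenase that supplies betaine, had 35.15, 55.3 and 31.1 CPM in PCT KO, against 34.4, 25.3, 21.8 and 27.8 CPM in PCT WT, with 1 KO library below the highest WT library (0.53 ± 0.21, limma adjusted p = 0.589). Sardh, the sarcosine dehydrogenase that follows Dmgdh, differed by 0.17 ± 0.19. The 5 members of this group summed to 64.7 ± 15.5 CPM in PCT KO and 41.5 ± 6.38 CPM in PCT WT.

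**Figure D3:**
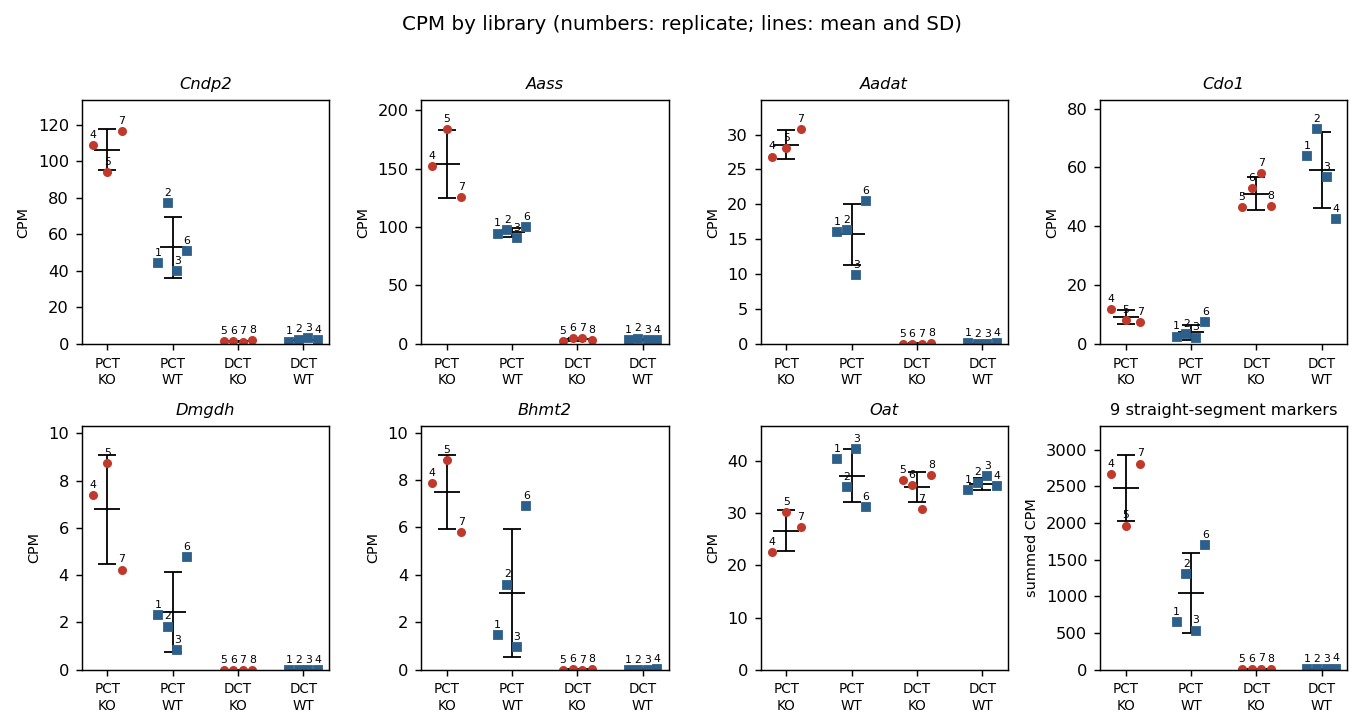
CPM of 7 members and the summed CPM of 9 straight-segment markers in every library, by group (red circles KO, blue squares WT, the small numbers are replicates, the lines are the mean and SD of 3 or 4 libraries). Cndp2, Aass and Aadat separate PCT KO from PCT WT, Oat separates them the other way, and in Cdo1, Dmgdh and Bhmt2 WT replicate 6 reaches into the KO range.

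Oat and Prodh2 were the members with lower values in KO at an unadjusted p under 0.05. Oat (chromosome 7, 132557478 to 132576398) had 22.5, 30.2 and 27.3 CPM in PCT KO, against 40.4, 35.03, 42.2 and 31.1 CPM in PCT WT. All KO libraries were below all WT libraries (log2 difference −0.49 ± 0.17, limma adjusted p = 0.483, exact permutation p = 0.0571). Prodh2 (the hydroxyproline dehydrogenase; chromosome 7, 30493622 to 30513402) had 2.56, 2.93 and 2.75 CPM in PCT KO, against 4.92, 4.62, 5.76 and 2.87 CPM in PCT WT, where WT replicate 6 lay within the KO range (−0.70 ± 0.27, limma adjusted p = 0.578). The 250 bases before the RefSeq start of Prodh2 are shown because Prodh2 is, with Bckdhb, one of the 2 members with 2 matches to GTTAAT, a part of the site of HNF1 factors, which act in the proximal tubule; the matches, in capitals, begin 73 bases before the start on the forward strand and 124 bases before it on the reverse strand (RefSeq, GRCm38.p6, chr7:30493408-30493657, + strand). Its last bases lie inside the GENCODE M21 gene span, and both matches lie before it.
Prodh2: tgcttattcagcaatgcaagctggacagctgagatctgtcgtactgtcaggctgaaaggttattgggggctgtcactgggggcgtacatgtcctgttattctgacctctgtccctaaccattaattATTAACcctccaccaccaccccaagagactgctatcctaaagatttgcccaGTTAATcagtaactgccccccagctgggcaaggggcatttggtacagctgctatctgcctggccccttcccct
GTTAAT was found in 4 of 42 members (9.52%) and in 7.49% of 27025 genes. Got1 was the other member whose groups did not overlap, with 13.5 to 15.0 CPM in PCT KO and 15.5 to 19.8 CPM in PCT WT (−0.28 ± 0.16, limma adjusted p = 0.75).

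The remaining members of the proximal tubule were closer to 0. The urea-cycle and creatine enzymes Asl, Gatm and Ass1 had log2 differences of −0.48, −0.27 and −0.05, so that all 4 members tested of the arginine group lay below 0, as did all 3 of the proline group. All 4 members of tyrosine breakdown lay above 0, from 0.01 (Hgd) to 1.17 (Hpd, SE 0.87), and the 4 of cysteine metabolism from 0.21 (Cbs) to 1.39 (Cdo1), with Cth at 0.41 ± 0.18 and Csad at 0.55 ± 0.29. Of the 8 branched-chain members, 6 lay above 0 and 2 below, from −0.30 to 0.43. None of these differences was called, and each pathway's counts describe members that were chosen with earlier results of these data known. Direction was kept in every alternative run for the 10 members with the smallest p in this comparison.

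**Figure D4:**
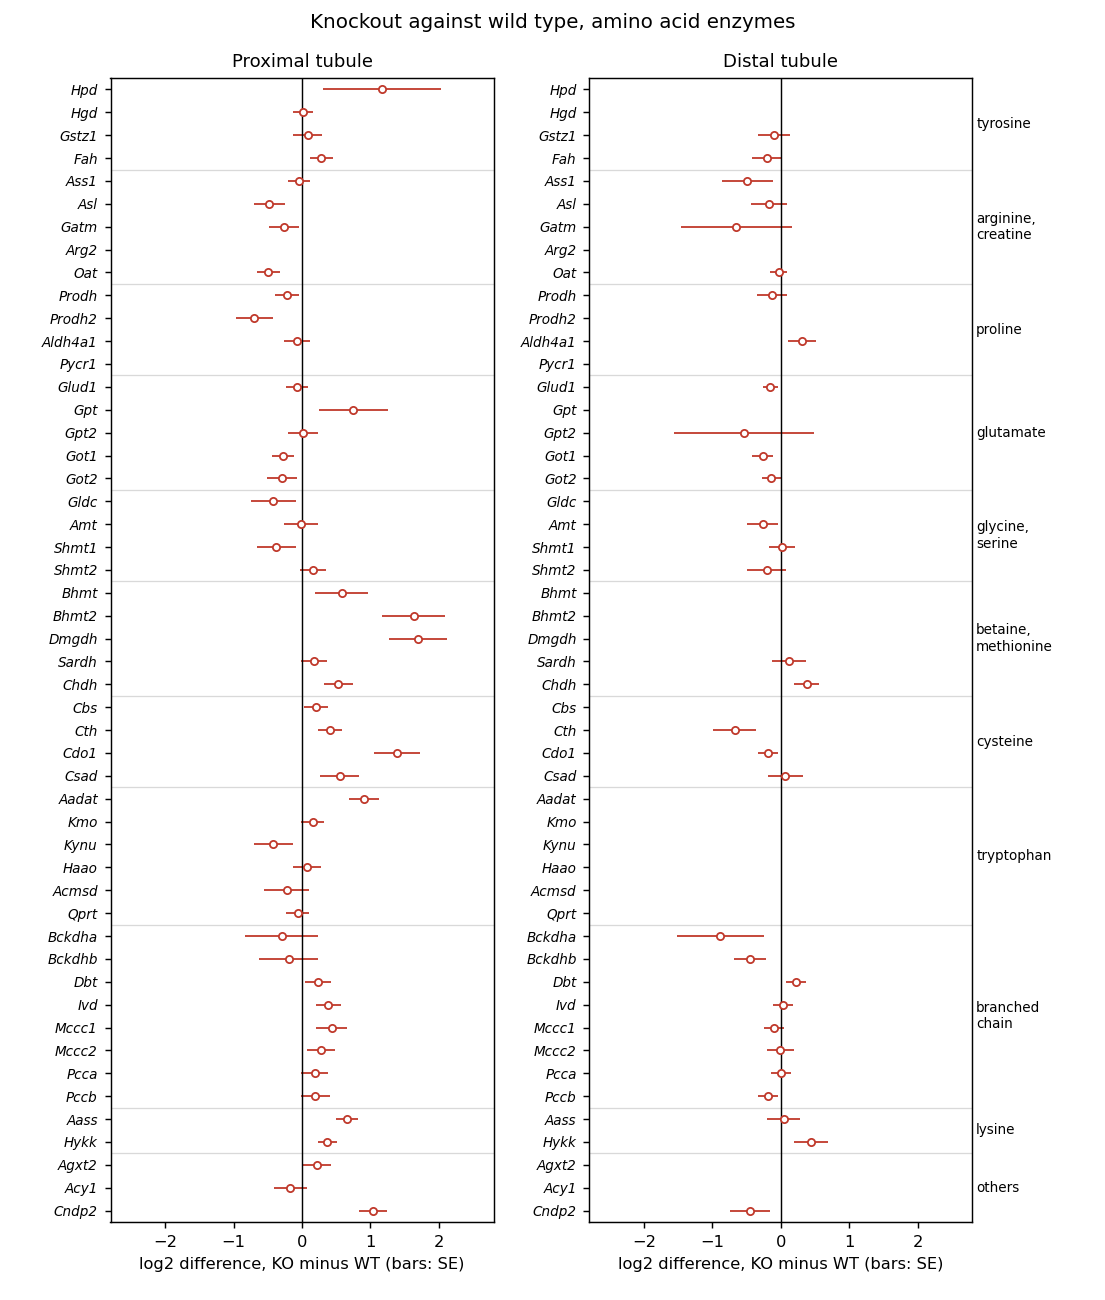
Log2 difference between KO and WT (KO minus WT, limma, bars are SE) for each member in proximal (left, 7 libraries) and distal tubule (right, 8 libraries), by pathway. Every point is open because 0 members passed the adjusted p of 0.05. Dmgdh, Bhmt2, Cdo1, Hpd and Cndp2 lie at or above 1 in proximal tubule. Members with no point did not pass the filter on low counts.

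In distal tubule 31 members passed the filter and none was called between KO and WT, where 0% of all 12968 genes tested were called. One member, Cth, passed an unadjusted p of 0.05, or 3.23% of those tested, where 7.13% of all genes did. The median log2 difference of the members was −0.14 (10 above 0 and 21 below), against −0.01 for all genes tested. Cth (cystathionine gamma-lyase) had 2.10, 1.95, 1.64 and 0.877 CPM in DCT KO, against 3.48, 3.04, 1.70 and 2.12 CPM in DCT WT, and the groups overlapped (log2 difference −0.67 ± 0.31, limma adjusted p = 0.687). In 2 of the members tested the groups did not overlap, both higher in KO, where 3.82% of all genes tested did not overlap. They were Hykk, with 2.34, 2.21, 2.31 and 3.76 CPM in DCT KO against 2.03, 1.94, 2.04 and 1.73 CPM in DCT WT (0.44 ± 0.25), and Aldh4a1, with 4.15, 3.69, 3.71 and 3.90 CPM in DCT KO against 3.59, 2.81, 3.35 and 2.91 CPM in DCT WT (0.31 ± 0.20), both with an exact permutation p of 0.0286, the smallest possible.

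The rest of the 10 members with the smallest p in distal tubule, and Cdo1, were not called either. Glud1 had 131, 134, 123 and 114 CPM in DCT KO, against 148, 151, 136 and 123 CPM in DCT WT (log2 difference −0.15 ± 0.12). Got1 had 27.0, 38.4, 25.9 and 25.1 CPM in DCT KO, against 25.5, 38.1, 36.4 and 38.5 CPM in DCT WT (−0.27 ± 0.16), and the groups overlapped over most of their range. Cdo1 differed by −0.18 ± 0.15, and Chdh had 15.6, 10.6, 13.5 and 15.0 CPM in DCT KO against 7.41, 10.2, 10.3 and 14.2 CPM in DCT WT (0.38 ± 0.18). Dbt, the E2 subunit of the branched-chain ketoacid dehydrogenase, had 17.96, 21.7, 22.7 and 19.3 CPM in DCT KO, against 18.2, 15.9, 21.8 and 14.9 CPM in DCT WT (0.22 ± 0.15). Its E1 subunits Bckdhb and Bckdha differed by −0.45 ± 0.23 and −0.88 ± 0.63, the last on 0.0581 to 0.992 CPM in DCT KO and 0.407 to 0.801 CPM in DCT WT. Cndp2, which stood apart in proximal tubule, had 1.497, 1.54, 1.32 and 1.98 CPM in DCT KO against 1.241, 2.33, 3.04 and 2.18 CPM in DCT WT (−0.45 ± 0.29). All 6 kynurenine members failed the filter in distal tubule.

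The difference between the genotype changes of the segments was tested by the interaction of genotype and segment over all 15 libraries. None of the 48 members tested was called, where 0% of all 15279 genes tested were called, and 7 members passed an unadjusted p of 0.05 (14.6%, 6 above 0 and 1 below), where 5.56% of all genes did. The median over members was 0.28 and over all genes −0.0025. Of the 48 members, 31 passed the filter on low counts in distal tubule, so for the others the distal change rests on few counts. The smallest p was that of Cdo1, whose KO minus WT difference was 1.58 ± 0.37 log2 units greater in proximal than in distal tubule (limma unadjusted p = 0.000301, adjusted p = 0.46). Cndp2 followed at 1.51 ± 0.41 (limma adjusted p = 0.544), then Gpt (2.91 ± 0.89, on 0.0712 to 0.476 CPM as group means), Cth (1.09 ± 0.36), Aass (0.63 ± 0.28), Mccc1 (0.54 ± 0.26) and, below 0, Oat (−0.45 ± 0.19). Without both libraries whose number begins with 97, Cdo1 was called (2.08, limma adjusted p = 0.0430).

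A further 100 genes of amino acid metabolism, listed from the same and neighbouring pathways, were read beside the members. In proximal tubule 77 were tested, 1 was called higher in KO and 0 lower (limma), where 0.166% of all genes tested were called. At an unadjusted p under 0.05, 9 were higher and 5 lower, or 18.2%, where 7.38% of all genes passed. The median log2 difference was 0.0039. The called gene was Acy3 (aminoacylase 3, which acts on N-acetylated aromatic amino acids; chromosome 19, 3986570 to 3990007), at 507 ± 115 CPM in PCT KO (438 to 640) and 231 ± 44.4 CPM in PCT WT (181 to 272), a log2 difference of 1.12 ± 0.19 with a limma adjusted p of 0.0381. Acy3 is also one of the 9 straight-segment markers above. Phgdh, the first enzyme of serine synthesis, came next at 0.625 ± 0.234 CPM in PCT KO and 2.16 ± 0.792 CPM in PCT WT (−1.78 ± 0.46, limma adjusted p = 0.201), with no overlap between 0.474 to 0.895 CPM in KO and 1.30 to 2.98 CPM in WT. In distal tubule 67 were tested and 0 called, where 0% of all genes were called. At an unadjusted p under 0.05 there were 2 (2.99%), where 7.13% of all genes passed. Between segments, 44 of 81 were called higher and 13 lower in proximal tubule of KO, and 50 of 79 higher and 13 lower in WT. Of all genes tested, 20.4% were called higher and 20.2% lower in KO, and 23.6% and 25.1% in WT. The median log2 differences of the listed genes were 1.18 in KO and 0.96 in WT, both below those of the 50 members. Among the tryptophan and kynurenine genes of this list, 7 of the 9 tested in KO were called higher and 2 lower. In WT, 6 of the 8 tested were called higher and 2 lower.

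The authors' deposited table for proximal tubule used the same libraries, so it is a second reading of them and not a replicate. Its direction was read from Cldn10, whose log2 fold change of −12.22 in the authors' deposited table stands for the loss in KO. Among its 14748 genes with an adjusted p, 136 (0.922%) in the authors' deposited table had an adjusted p under 0.05, and 4 of the 48 members with a value were among them, all higher in KO. They were Cndp2 (0.99, adjusted p = 0.00253), Aass (0.67, 0.0128), Aadat (0.85, 0.0254) and Dmgdh (1.46, 0.0497) in the authors' deposited table. Cdo1 stood at 1.22 with an adjusted p of 0.0671 in the authors' deposited table. All 48 members had the same sign in the authors' deposited table as with limma. For distal tubule the authors' deposited table had 3 of 7181 genes (0.0418%) with an adjusted p under 0.05 and 0 of the 26 members with a value.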

How the data were processed

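RNA from pooled dissected tubules was sequenced as Nextera XT libraries, per the labels' protocols. The submitters' processing notes name CASAVA 1.8, STAR 2.5, DESeq2 1.24.0 and GRCm38 for the authors' work. The counting program, strand setting, annotation release, strain and age were not given in the sources used here. The authors deposited raw counts per gene, and tables of log2 fold change with p-values per segment. Counts were tested with limma 3.58.1 in R 4.3.3: voom weights, TMM scaling, a prior count of 0.5, genes kept at a minimum count of 10 and a total of 15, and Benjamini-Hochberg adjustment over all genes kept. Each comparison used only its own libraries, and the interaction used all 15. The method was tested on simulated data. CPM divides counts by the TMM-scaled library. Lengths are merged exons of GENCODE M21. Exact permutation tests over libraries were two-sided. Alternatives were other filters, weights, covariates and fits, and each library left out.

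Library values are given for up to 10 members per segment with the smallest KO against WT p, the 3 highest and 3 lowest between segments in WT, and the 2 most abundant per length in proximal WT. The members and lists were chosen with earlier results of these data known. Exon bases are shared with another gene by 16 of 50 members, over 10% of them in 4 (Bckdha, Aldh4a1, Arg2 and Gstz1), where counts are uncertain.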

Additional observations from a re-analysis of the deposited data

Results flagged for a closer look

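In groups of 4 libraries, 4 of 47 groups had 1 library whose gap to the others passed Dixon's critical value, and chance flags about 1 in 20. Hykk stood at 3.76 CPM in DCT KO replicate 8, where the other DCT KO libraries had 2.21 to 2.34 CPM. Got1 stood at 38.4 CPM in DCT KO replicate 6, above 25.1 to 27.0 CPM in the others. Got1 also stood at 25.5 CPM in DCT WT replicate 1, below 36.4 to 38.5 CPM in the others. Acmsd stood at 0.0643 CPM in DCT WT replicate 4, with 0 in the other DCT WT libraries; 1 library with counts beside 3 at 0 always passes this criterion, so that result says only that 3 counts were seen.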

How the results depend on the processing

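No median over members changed direction under the alternatives run. Nor did the KO against WT differences of the 10 members with the smallest p in each segment. The same held between segments in WT for Acmsd, Gatm, Kmo, Cdo1, Bckdhb, Shmt1 and Ass1. The direction of single members was not followed between segments in KO, for the interaction or for other members. The medians of all genes lie near 0 and some changed sign: between segments in WT −0.02, against 0.0043 with a stricter filter; in KO −0.04, against 0.0020 and 0.0103 without DCT KO replicates 5 and 6; and for the interaction −0.0025, against 0.0048 with median-of-ratios scaling and 0.0225 without PCT KO replicate 5. With no filter they were −0.16 in WT and −0.13 in KO. Members called in proximal tubule between KO and WT numbered 0, against 2 with no filter on low counts (Cndp2 and Aass), 6 in 1 fit of all 15 libraries, 2 without both libraries whose number begins with 97, and 0 to 1 when 1 library was left out; the cause was not tested. Genes called in that comparison numbered 22 of all tested, against 46 higher and 34 lower with no filter, 19 and 17 with a stricter filter, and 92 and 31 in 1 fit. Leaving out 1 library gave 4, 6 and 10 (PCT KO replicates 4, 5 and 7) and 2, 7, 9 and 18 (PCT WT replicates 1, 2, 3 and 6). The median over members was 0.046 without both 97 libraries and 0.062 to 0.16 with 1 library left out. In distal tubule it was −0.067 in 1 fit. Between segments in WT the median was 3.35 with no filter, 3.48 with a stricter filter, 3.48 in 1 fit, 3.43 with the replicate block, and 3.33 to 3.55 with 1 library left out. In KO it was 3.47 with limma-trend, 3.60 with the replicate block and 3.45 to 3.69 with 1 library left out. The interaction median was 0.33 with no filter, 0.23 with limma-trend, 0.25 with the library series as a covariate, 0.24 without both 97 libraries (1 member called) and 0.19 to 0.36 with 1 library left out.

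No label says that equal numbers share an animal, so the numbers were not taken as pairs. Number 4 is a PCT KO and a DCT WT library, and number 6 a PCT WT and a DCT KO library. Same-numbered libraries of 1 genotype did not deviate together (correlations −0.0149, −0.0524 and 0.0429 in WT, −0.127 and −0.252 in KO). Groups of 3 and 4 libraries are too small for this to exclude pairs. With the replicate block, between segments in KO, 33 members were called higher and 3 lower, against 35 and 5 without it. Glud1 (log2 difference 0.73, limma adjusted p = 0.218), Amt (1.15, 0.115), Got1 (−0.91, 0.139) and Got2 (−0.71, 0.311) were not called with the block. Without it their log2 differences were 0.78, 1.22, −0.99 and −0.85. Only numbers 5 and 7 occur in both KO groups, and the block left few residual degrees of freedom. A call lost with the block can therefore not be read as an effect of pairing. Group sizes of 3 and 4 and distal counts near 0 limit precision.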
